A study of Mus musculus with 2 samples.

Results

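Interferon-signature T cells were gated from the raw counts of sorted CD45+ cells of the mouse cecum. A cell was a member when it held at least 2 UMIs (unique molecular identifiers, which count captured RNA molecules) of Ifit1 and Ifit3 together, at least 1 UMI of Cd3e, Cd3d, Cd3g and Trac together, and none of Foxp3, Cd79a and Csf1r, the genes that mark regulatory T cells, B cells and macrophages. The members were thus chosen by the values of these 9 genes, which are given below as a description only. There were 306 members among 11437 T cells that met the same gate without the Ifit1 and Ifit3 condition (2.68%) and among 19571 cells assigned to a mouse in all (1.56%).

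The series, by its title, asks how Trpv1+ nociceptors, the pain-sensing neurons that carry the capsaicin receptor channel, act on immune cells of the gut. Cells came from 4 male mice aged 101 days, 2 labelled Trpv1-ADC and 2 littermates labelled CTRL. Every mouse, controls included, had received AAV (a viral vector) intraperitoneally as a neonate and CNO, the drug that switches designer receptors, in 7 injections on alternate days; the design text speaks of Trpv1+ neuronal activation in Trpv1-ADC mice. Trpv1-WT.B6 is named as a strain beside Trpv1-Cre.B6 for all mice together, without saying which mouse is of which, and the vector's cargo and promoter are not named in the labels. The mice were marked with separate CD45 tags and run together as 1 library. The mouse was the replicate (n = 2 per group). Values of the 4 mice are given below in the order CTRL 1, CTRL 2, Trpv1-ADC 1 and Trpv1-ADC 2. The numbers are those of the labels and were not taken as pairs in the main fits.

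Type I interferons are cytokines that most nucleated cells can answer. They bind the receptor chains Ifnar1 and Ifnar2, the kinases Jak1 and Tyk2 then phosphorylate STAT proteins such as Stat2, and these enter the nucleus with Irf9 and bind a short promoter element, the interferon-stimulated response element. The genes switched on there block viral replication, sense foreign nucleic acid, raise antigen presentation on MHC class I and feed back on the pathway itself. Ifit1 and Ifit3, which bind viral RNA, are among the genes most tightly tied to this element, and type II interferon (Ifng) and type III interferon share part of the target set. Small groups of T cells with this programme are known from many tissues at rest.

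The promoters of the gating genes are shown first because the interferon-stimulated response element can be looked for in them. RefSeq (GRCm38.p6, the assembly also called mm10) gives Ifit1 a window at chr19:34640639-34640938 on the plus strand and Ifit3 one at chr19:34583279-34583578, plus strand. Isg15, the ubiquitin-like modifier, and Rsad2, the antiviral enzyme viperin, were not used by the gate and follow for comparison, at chr4:156200769-156201068 and chr12:26456403-26456702, both on the minus strand. Oasl2, an oligoadenylate synthetase relative at chr5:114896684-114896983 on the plus strand, is shown as one without the core. Each window runs 5′ to 3′ on the gene's strand, from 250 bases before the start of transcription to 50 after it, and capitals mark the core of the element, GAAANN followed by GAAA, on either strand and with overlapping matches joined.
Ifit1: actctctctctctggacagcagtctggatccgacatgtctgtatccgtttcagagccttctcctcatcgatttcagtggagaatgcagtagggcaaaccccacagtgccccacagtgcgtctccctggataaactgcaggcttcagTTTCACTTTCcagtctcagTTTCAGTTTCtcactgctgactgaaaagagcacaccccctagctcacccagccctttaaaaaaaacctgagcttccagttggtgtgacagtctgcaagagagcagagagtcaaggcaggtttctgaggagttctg
Ifit3: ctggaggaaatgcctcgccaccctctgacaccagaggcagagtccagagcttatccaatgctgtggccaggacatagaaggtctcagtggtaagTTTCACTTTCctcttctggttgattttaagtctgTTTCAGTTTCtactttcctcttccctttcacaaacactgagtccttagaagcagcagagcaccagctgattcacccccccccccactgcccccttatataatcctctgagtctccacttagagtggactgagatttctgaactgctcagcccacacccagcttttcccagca
Isg15: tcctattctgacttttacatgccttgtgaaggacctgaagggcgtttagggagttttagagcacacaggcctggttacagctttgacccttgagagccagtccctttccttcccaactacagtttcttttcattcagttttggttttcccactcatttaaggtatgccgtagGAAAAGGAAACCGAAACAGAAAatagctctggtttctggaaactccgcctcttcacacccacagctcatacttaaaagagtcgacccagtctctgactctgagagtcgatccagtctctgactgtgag
Rsad2: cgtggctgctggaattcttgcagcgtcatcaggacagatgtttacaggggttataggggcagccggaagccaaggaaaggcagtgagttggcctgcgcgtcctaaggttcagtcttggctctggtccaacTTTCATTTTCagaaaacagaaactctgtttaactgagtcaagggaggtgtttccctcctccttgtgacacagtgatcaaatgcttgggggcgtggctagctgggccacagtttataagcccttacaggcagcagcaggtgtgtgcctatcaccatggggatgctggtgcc
Oasl2: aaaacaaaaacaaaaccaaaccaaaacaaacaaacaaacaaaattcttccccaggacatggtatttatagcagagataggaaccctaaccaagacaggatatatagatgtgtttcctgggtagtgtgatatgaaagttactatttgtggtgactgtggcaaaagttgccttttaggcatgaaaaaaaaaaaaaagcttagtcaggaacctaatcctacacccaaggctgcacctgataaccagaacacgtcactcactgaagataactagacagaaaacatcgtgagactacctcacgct

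The core occurred 2 times in Ifit1, beginning 104 and 85 bases before the start, and 2 times in Ifit3, at 156 and 122 bases. Isg15 held 3 overlapping matches at 78, 72 and 66 bases, and Rsad2 held 1 at 120 bases. Oasl2 held 0 in this window. Of all 27025 genes with a promoter in the table, 3.99% had a match in such a window. A match is a string of letters, not a measured binding site.

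Members were few in every mouse and fewest in CTRL 1. They numbered 27, 95, 117 and 67, of 2768, 2604, 2844 and 3221 T cells. The shares were 0.975% (exact 95% binomial interval 0.644 to 1.42), 3.65% (2.96 to 4.44), 4.11% (3.41 to 4.91) and 2.08% (1.62 to 2.63), intervals that cover counting error only. Most members sat just above the threshold: 130 held exactly 2 UMIs of the gating genes, 62 held 3 and 17 held 10 or more, with 29 the highest. Ifit1 alone was seen in 144 members, Ifit3 alone in 25 and both in 137. Just outside the gate were 521 T cells with 1 such UMI, and 10610 had none; these last are called other T cells from here on. Members were somewhat deeper than other T cells, with median total UMIs of 10721, 6829, 6305 and 6567 against 5997, 5719, 5777 and 5802, and the members of CTRL 1 were by far the deepest.

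The label was checked on markers the gate does not use. Trbc1, Trbc2, Lck and Cd2, 4 T cell markers, summed to 1213, 1476, 1609.7 and 1507 CPM (counts per 1000000 UMIs of the summed cells of a mouse) in members and to 1542, 1548, 1652 and 1593 in other T cells, which were gated on the same T cell genes. The 6 B cell markers other than Cd79a summed to 84.8 to 130 CPM in members and 120 to 158 in other T cells, the 6 macrophage markers other than Csf1r to 61.4 to 221 against 73.9 to 123, and the 6 plasmacytoid dendritic cell markers, which include the interferon-induced Bst2, to 378 to 540 against 251 to 260. Siglech, the defining gene of plasmacytoid dendritic cells, was at 0 in members. The 6 monocyte markers, among them the interferon-induced Ly6c2, summed to 455 to 798 CPM against 294 to 430.3. The 5 neutrophil markers summed to 325, 1.25, 2.41 and 4.73 CPM in members against 65.6, 160, 37.5 and 81.7 in other T cells. The part of these cells in the results was not tested. The 6 epithelium markers summed to 2123, 548, 18.1 and 890 CPM in members against 126, 151, 40.9 and 84.4 in other T cells, higher in members of every mouse but Trpv1-ADC 1. The 5 fibroblast markers summed to 1555, 1116, 810 and 691 CPM against 870, 714, 721 and 418, and the 4 endothelium markers to 240, 280, 337 and 366 against 220, 194, 235 and 234. Cells with over 10 UMIs of the epithelium, fibroblast and endothelium markers made up 8 of 27, 9 of 95, 6 of 117 and 7 of 67 members, 9.80% in all, against 4.39% of other T cells. Scrublet, a program that scores likely doublets, marked 36 members (11.8%), 11 of them in CTRL 1, and 9.04% of other T cells. The call counts of the gene lists without CTRL 1 or without the cells over 10 such UMIs are given below where they moved.

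**Figure D1:**
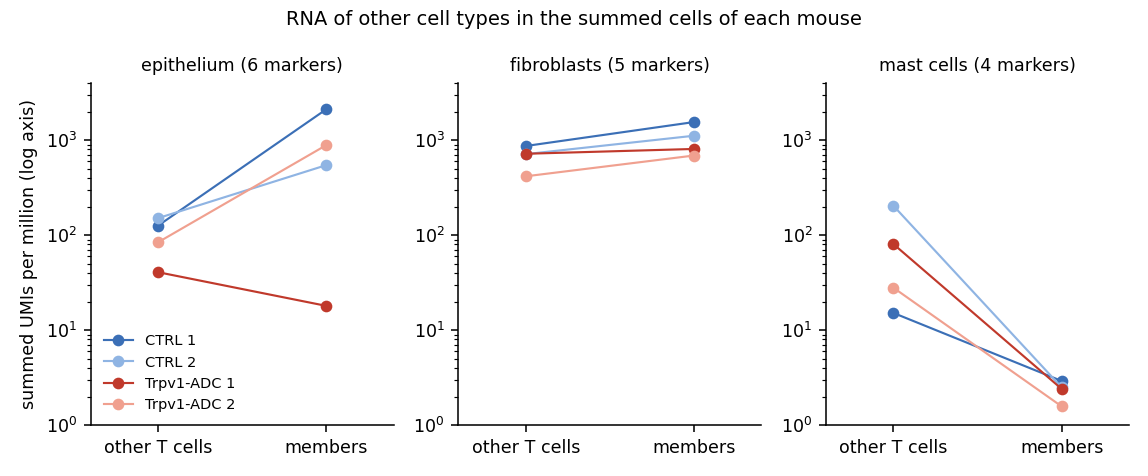
Summed CPM (log axis) of the marker genes of 3 other cell types in other T cells and in members, 1 line per mouse. Epithelium RNA reached 2123 CPM in the members of CTRL 1 and 18.1 in those of Trpv1-ADC 1, fibroblast RNA was higher in members of all 4 mice, and mast cell RNA, up to 204 CPM in other T cells, lay at or under 2.92 in members.

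Cells past the gate also carried more of the other antiviral genes. To compare cells of unlike depth, each was thinned to 2000 UMIs, and the antiviral effector genes detected were counted out of 45 that leave aside all Ifit genes. Other T cells showed a mean of 3.63 such genes, cells with 1 gating UMI 5.43, members with 2 UMIs 8.28, members with 3 UMIs 9.85 and those with 4 or more 11.8. At least 3 of these genes were detected in 70.03% of other T cells and in 96.9% of members with exactly 2 gating UMIs. The order of the means from 0 to 2 UMIs was the same in each mouse. The mean was lowest in CTRL 1 at every step, also outside the gate. It was 3.22 at 0 UMIs against 3.61, 3.78 and 3.87 in the other mice, and 4.19 at 1 UMI against 5.77, 6.01 and 5.38. Members of CTRL 1 had a median of 5 genes at 2 UMIs against 8, 8 and 8.5, and of 7 against 11, 12.5 and 13 at 4 or more. These counts come from the cells the gate picked and are given with no test.

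**Figure D2:**
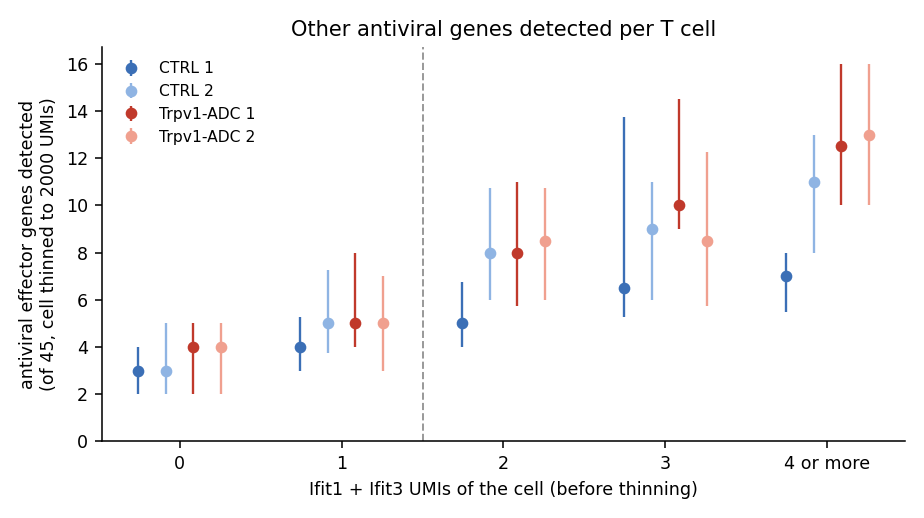
Antiviral effector genes detected per T cell (of 45, each cell thinned to 2000 UMIs) by the cell's Ifit1 and Ifit3 UMIs, with the median (point) and quartiles (bars) of each mouse, and the gate as a dashed line. Medians were 3 to 4 genes at 0 UMIs and 7 to 13 at 4 or more, lowest in CTRL 1.

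Members were next compared with other T cells of the same mouse across all genes but the 9 of the gate. Members and other T cells differ by the gating UMIs themselves, so the fit reads which genes go along with Ifit1 and Ifit3 within a mouse, and not whether the cells form a separate type. Of 15422 genes tested, edgeR called 282 higher in members (1.83% of those tested) and 82 lower (0.532%) at an adjusted p under 0.05. Without Trpv1-ADC 1 the counts were 767 and 200, and without Trpv1-ADC 2 they were 328 and 152. Of the 282 and 82 genes, 234 and 79 had the same direction in all 4 mice. The lists of interferon-linked genes were drawn up with earlier results of these data known. They hold 141 genes, of which 136 were tested and 90 were higher, so most calls to the higher side, 192, lay outside them. The median log2 fold change over all genes tested was -0.077.

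The receptor chains were not called, and 6 of the 16 signal factors and feedback genes were. Ifnar1 stood at 67.2, 93.8, 83.1 and 121 CPM in members and 110, 111, 93.8 and 102 in other T cells (log2 fold change -0.16 ± 0.16 SE, edgeR adjusted p = 0.784), and Ifnar2 at 0.034 ± 0.18. The ranges of members and other T cells overlapped for both, and 0 of 5 tested receptor genes were called. All 6 called signal factors and feedback genes were higher, with a list median of 0.35. Stat2, which is used by type I and III interferons, stood at 90.6, 131, 144 and 161 CPM in members and 31.02, 39.1, 31.02 and 40.05 in other T cells (1.92 ± 0.16, adjusted p = 1.55e-09). Every member sum lay above every other T cell sum. Irf9, its DNA-binding partner, was higher by 0.87 ± 0.15. Irf7, the factor that amplifies interferon production, was higher by 1.70 ± 0.17. Of the brakes, Usp18, which removes Isg15 from proteins and blocks the receptor, was higher by 2.88 ± 0.28, from 6.64, 10.8, 11.01 and 12.1 CPM in other T cells to 35.1, 101, 125 and 45.8 in members. Socs1, the inhibitor of JAK kinases, was higher by 0.64 ± 0.15 (adjusted p = 0.014), a call lost without CTRL 2 (0.60, adjusted p = 0.0649) or without Trpv1-ADC 1 (0.48, adjusted p = 0.0972). Jak1 (-0.07), Tyk2 (-0.53) and Irf1 (0.48 ± 0.14, adjusted p = 0.0696), the factor most used by type II interferon, were not called.

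The antiviral effectors were the list with the most calls. Of its 49 genes 47 were tested, 44 were higher and 0 lower, with a median of 1.93. Isg15 stood at 260.2, 381, 408 and 366 CPM in members and 42.2, 67.0, 56.4 and 62.0 in other T cells (2.65 ± 0.14, adjusted p = 2.11e-13). At least 74.6% of the members of each mouse held an Isg15 UMI, against at most 26.2% of other T cells. Mx2, a dynamin-like antiviral GTPase, went from 3.13, 3.80, 4.50 and 5.96 CPM in other T cells to 46.8, 78.8, 92.7 and 59.95 in members (4.02 ± 0.25, adjusted p = 3.51e-12). Rsad2 stood at 90.6, 120, 183 and 118 CPM against 6.04, 12.7, 6.87 and 10.9 (3.84 ± 0.25). For all 3 genes the lowest member sum was over the highest sum of other T cells. Oasl2, Oas3 and Oas2 of the oligoadenylate synthetase family, which senses double-stranded RNA and activates RNase L, were higher by 3.14, 2.60 and 3.03. Further members of the list included Mx1 (3.57), Ifi44 (3.704), the nucleotide kinase Cmpk2 (3.42), the membrane chaperone Rtp4 (2.76), the apoptosis factor Xaf1 (2.58) and Bst2 or tetherin, which holds budding virions at the cell surface (1.65). Ifit2, a relative of the gating genes, was higher by 2.91 ± 0.36, a call lost without CTRL 1, as were those of Ly6a and Oasl1. Zc3hav1 (0.36), Phf11d (1.87) and Ifit1bl2 (2.15) were not called. UMIs of near-identical relatives such as the Ifit, Oas, Gbp, Slfn and PYHIN genes can be split between them by the alignment, and values of single genes of these families are uncertain to that extent. Ifit2, Ifit3b, Ifit1bl1 and Ifit1bl2, relatives of the gating genes, are part of this list. Its counts are to that extent not independent of the gate.

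Sensors of nucleic acid followed in part. Of 10 tested, 4 were higher and 0 lower. Ifih1, which encodes the RNA sensor MDA5, stood at 78.9, 168, 212 and 112 CPM in members and 16.7, 26.1, 24.6 and 22.4 in other T cells (2.64 ± 0.18, adjusted p = 2.09e-11), with no overlap. Zbp1, the sensor of left-handed nucleic acid, was higher by 2.51, Ddx58, which encodes RIG-I, by 1.74, and Dhx58, their regulator, by 2.10. Cgas (0.97, adjusted p = 0.288), its adaptor Sting1 (0.20) and Mavs (-0.14), the adaptor of RIG-I, were not called. Of the 12 PYHIN proteins, which bind DNA, 8 were higher, among them Ifi208 (2.40 ± 0.18) and Ifi203 (1.57 ± 0.15). Aim2, the inflammasome sensor of that family, stood at 61.4, 57.5, 49.4 and 58.4 CPM in members and 77.7, 80.5, 79.6 and 77.3 in other T cells. It lay lower in members of all 4 mice without passing the test (-0.47 ± 0.16, adjusted p = 0.151).

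GTPases of host defence were mostly higher. Of 17 guanylate-binding and immunity-related GTPases tested, 14 were higher, 0 lower, with a median of 1.61. Iigp1, which disrupts the vacuoles of intracellular parasites, stood at 126, 209, 171 and 267 CPM in members and 21.2, 41.8, 28.3 and 32.0 in other T cells (2.65 ± 0.15, adjusted p = 6.9e-13). Gbp2 was higher by 2.06 and Igtp, also called Irgm3, by 1.59. Of 7 Schlafen genes, regulators of T cell quiescence and of translation, 6 were higher. Slfn5 went from 26.1, 31.04, 34.2 and 33.2 CPM in other T cells to 134, 240.0, 423 and 204 in members (2.94 ± 0.22), while Slfn2 was higher by 0.56 (adjusted p = 0.0327), a call that ended without CTRL 2 (0.58, adjusted p = 0.0581), Trpv1-ADC 1 (0.43, 0.151) or Trpv1-ADC 2 (0.49, 0.153).

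The MHC class I genes moved little. Of 19 tested, 6 were higher and 0 lower, with a median of 0.33. With at most 10 non-immune UMIs 10 were higher, without CTRL 1 there were 8, and among Cd4 and Cd8 cells alone 1 and 0. Tap1, the peptide transporter, stood at 73.1, 144, 169 and 128 CPM in members and 65.5, 76.6, 76.5 and 73.1 in other T cells (0.82 ± 0.16, adjusted p = 0.00232). The groups of sums touch, since the Tap1 level in the members of CTRL 1 lay below that in other T cells of 3 mice. The nonclassical genes H2-T22 and H2-T23 were higher by 0.80 and 0.74, Psmb10 and Psme2 of the immunoproteasome by 0.72 and 0.55, and the peptide editor Tapbp by 0.62. The call of Tapbp was lost without CTRL 2 (adjusted p = 0.0696), and that of Psme2 without CTRL 2 (0.0713) or Trpv1-ADC 2 (0.0611). The classical heavy chain H2-K1 (0.043 ± 0.13) and the light chain B2m (0.18 ± 0.13) were not called.

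Of 8 chemokines and ligands tested, 2 were higher and 1 lower. Cxcl10, which draws Cxcr3-bearing T cells, stood at 140, 578, 202 and 413 CPM in members and 31.6, 70.8, 52.2 and 51.1 in other T cells (2.59 ± 0.18, adjusted p = 1.26e-07), and 14.8%, 40%, 19.7% and 35.8% of members held a UMI of it. Cd274, which encodes the checkpoint ligand PD-L1, was higher by 0.93 ± 0.16. Ccl5, a chemokine of effector T cells, was lower by 0.73 ± 0.16 (adjusted p = 0.0102), a call lost without CTRL 1 (-0.75, adjusted p = 0.181), in Cd4 cells alone (-0.13), in Cd8 cells alone (-1.37), with at most 10 non-immune UMIs (-0.45) and against depth-matched cells (-0.39). The interferon ligands other than Ifng were next to absent from T cells. With Ifng included, the ligand genes summed to 6.02 to 52.6 CPM in members and 21.5 to 37.1 in other T cells. Of 21 interferon genes Ifng alone had enough UMIs to test (-0.29 ± 0.67), and Ifnb1 and the numbered Ifna genes of the list were at 0 in members and in other T cells.

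**Figure D3:**
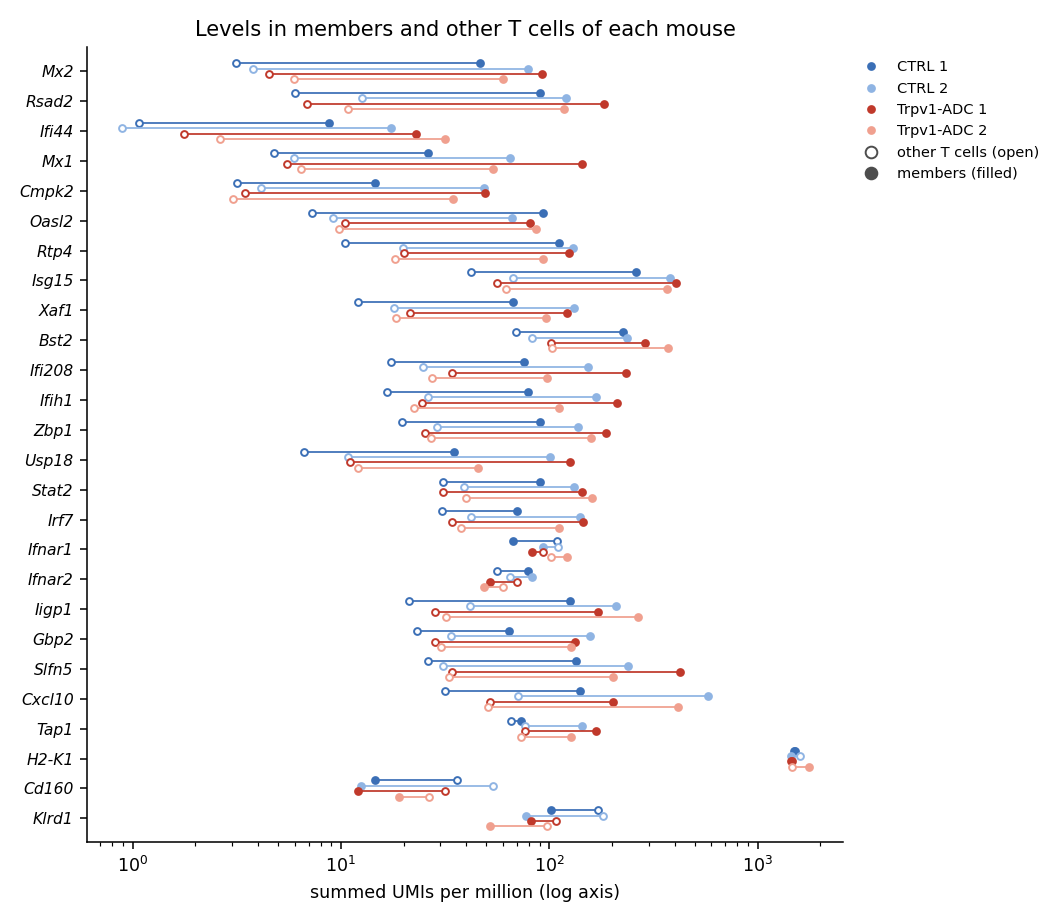
Summed CPM (log axis) of 26 genes in members (filled) and in other T cells (open) of each mouse, joined by a line. Antiviral effectors such as Mx2 and Rsad2 have the longest lines, Ifnar1, Ifnar2 and H2-K1 the shortest, and Cd160 and Klrd1 run the other way.

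**Figure D4:**
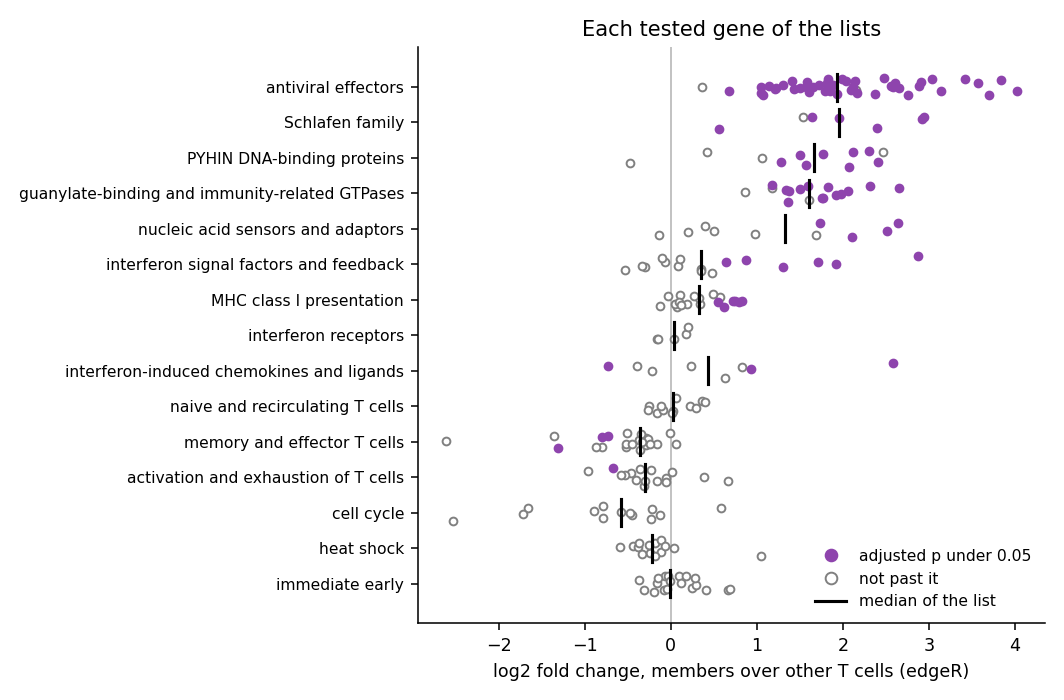
Log2 fold change of members over other T cells for each tested gene of 15 lists, filled where the adjusted p was under 0.05, with the median of each list as a bar. The antiviral effectors have 44 of 47 genes filled and a median of 1.93, and the receptors 0 of 5 and a median of 0.034.

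The antiviral effectors were higher within either lineage. Among Cd8 cells alone (a Cd8a or Cd8b1 UMI and no Cd4) 28 of 44 antiviral effectors were higher, with a median of 1.96. Among Cd4 cells alone there were 36 of 46, with a median of 1.97. The fits within a lineage rest on 10, 47, 56 and 21 Cd8 members and on 6, 22, 31 and 21 Cd4 members. With cells over 10 non-immune UMIs left out, 46 of 47 were higher (median 2.17), and 88 of the 90 higher genes of the interferon-linked lists were still called. Without CTRL 1 there were 41 of 48 (median 2.10). Against other T cells matched by total UMIs there were 44 of 47 (median 1.98). Other lists held fewer calls within a lineage. Of the GTPases 8 of 16 were higher in Cd4 and 6 of 16 in Cd8 cells, of the Schlafen genes 3 of 6 and 2 of 6, and of the chemokines and ligands 0 of 8 and 1 of 8. The calls of Tap1 (0.85 and 0.74), H2-T22 (0.71 and 0.80), Psmb10 (0.78 and 0.80), Cd274 (0.88 and 1.05), Cd160 (-0.78 and -1.11) and Nr4a2 (-0.50 and -0.68) were lost in both. The part of the smaller member numbers in the lost calls was not tested.

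The element shown above in Ifit1 and Ifit3 was counted in the promoters of the called genes. Of the 90 higher genes on the interferon-linked lists, 70 had a promoter in the RefSeq table and 39 of these (55.7%) held the core. Of the 192 higher genes outside the lists, 158 had a promoter and 18 held it (11.4%), and of 82 lower genes 60 had a promoter and 0 held it. Among tested genes of the interferon-linked lists that were not called, 10 of 36 with a promoter held it (27.8%). Among 10867 tested genes with a promoter the share was 3.95%. These shares describe lists that were drawn up from known interferon targets, and no test was made.

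The largest rises were not all of antiviral genes. The 15 largest were Mx2, Rsad2, Ifi44, Mx1 and Cmpk2 together with Fam3b (4.25 ± 0.70), Mettl7b (4.10 ± 0.49), Hsd3b3 (3.87), Myo15b (3.71), Prr15l (3.64), Dsg2, the desmosomal cadherin (3.53), Mall (3.26), Degs2 (3.25), the kinase subunit Prkaa2 (3.19) and the predicted gene Gm6545 (3.42). Mettl7b stood at 140, 38.8, 1.204 and 63.1 CPM in members against 3.29, 4.81, 0.547 and 2.58, and 7.41%, 3.16%, 0.855% and 1.49% of members held a UMI of it. Its level thus came from a few cells. Of the 10 genes from Fam3b to Gm6545, all but Gm6545 had their highest member level in CTRL 1 and their lowest in Trpv1-ADC 1, as the epithelium markers had. They were higher in members than in other T cells of Trpv1-ADC 1 too, where the epithelium markers were lower, and the part of epithelium RNA in them was not tested. With cells over 10 non-immune UMIs left out Dsg2 stood at -0.86, and 69 of the 192 higher genes outside the interferon-linked lists were still called. Gm6545 was different in this respect, at 5.85, 28.8, 24.1 and 17.4 CPM in members against 0.755, 1.77, 2.13 and 2.37, and was called in every alternative fit that tested it. Fam3b, Mall, Degs2 and Prkaa2 lost theirs without CTRL 1.

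The largest falls were in genes found in few T cells. Klrh1, a killer cell lectin-like receptor, had 0 UMIs in members and 525 in other T cells, at least 6.46-fold lower against a floor of 3 counts over the members. 5830411N06Rik (at least 4.40-fold lower), Cfap45 (at least 3.58-fold lower) and the neutrophil gene Retnlg (at least 3.20-fold lower) were likewise at 0 in members. The calls of these last 3 were lost without CTRL 1 and without CTRL 2. The mast cell proteases Mcpt1 and Mcpt2 stood at 42.97 and 29.2 CPM over all other T cells and 1.15 and 0.384 over all members, Retnla at 27.8 and 3.84 and the chemokine Ccl21a at 18.0 and 1.53. Mcpt1 ran from 7.82 CPM in the other T cells of CTRL 1 to 105 in those of CTRL 2 and was found in 0.972% to 1.39% of them. With the stricter tag rule Mcpt1 and Mcpt2 stood at -1.77 and -1.52 and were no longer called. Tmem150c (-3.74) and Olfr655 (-3.16) complete the 10 largest falls, and the call of Tmem150c was lost without CTRL 1, CTRL 2 or Trpv1-ADC 1.

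Of 24 memory and effector genes 0 were higher and 3 lower (median -0.36), where 0.532% of all genes were lower, and 1 of the 24 lay above 0. The 3 were Ccl5, Cd160 and Klrd1. With at most 10 non-immune UMIs 5 were lower, without CTRL 1 there were 2, and among Cd4 or Cd8 cells alone 0. Cd160, a receptor of cytotoxic and intraepithelial lymphocytes, stood at 14.6, 12.5, 12.04 and 18.9 CPM in members and 36.1, 53.7, 31.6 and 26.6 in other T cells (-1.32 ± 0.27, adjusted p = 0.0029), with no overlap, and lost its call without CTRL 2 (-1.03, adjusted p = 0.0766). Klrd1, which encodes CD94, was lower by 0.80 ± 0.16, and stood at 0.41 among Cd4 cells alone. Nr4a2, induced by antigen receptor signals, was lower by 0.67 ± 0.14 and was the only call among 16 activation and exhaustion genes. Of 12 naive and recirculating genes, 13 cell cycle genes, 14 heat shock genes, 19 immediate early genes, 147 genes named as ribosomal proteins and 36 mitochondrially encoded genes, 0 were called in either direction, with list medians of 0.02, -0.58, -0.22, -0.0062, 0.035 and -0.020. The alternatives gave some calls. Of the naive and recirculating genes 1 was higher with at most 10 non-immune UMIs (median 0.20). Against other T cells matched by total UMIs 6 of the 13 cell cycle genes were lower (median -1.83). Of the heat shock genes 4 were lower with at most 10 non-immune UMIs, 3 without CTRL 1, 3 without Scrublet doublets and 1 against matched cells, and of the immediate early genes 3, 0, 1 and 1.

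Lineage and state were also read as shares of cells with a UMI. After each cell was thinned to 2000 UMIs, a Cd8a or Cd8b1 UMI without Cd4 was found in 25.9%, 36.8%, 38.5% and 20.9% of members and in 22.2%, 20.8%, 24.6% and 26.6% of other T cells (B cells 0.508% to 0.897%), a difference of 6.98 points ± 9.99 (SD, n = 4; exact two-sided sign permutation p = 0.375) that was positive in 3 of 4 mice. Differences were -4.46 points for Cd4 without Cd8, 9.79 for Ccr7, -4.73 for Cd44, -5.67 for Ccl5, -1.72 for Nkg7, -2.02 for Trdc of gamma delta T cells and 0.564 for Mki67, with exact p from 0.25 to 0.625. An exact sign permutation of 4 pairs cannot reach 0.05, so these are values and not a test of likeness (adjusted p from 0.482 to 0.625 over 9 features).

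Read from the other side, Cd8 cells gave the members most unevenly. Of T cells with a Cd8 UMI and no Cd4, 1.13%, 5.77%, 6.04% and 1.83% were members, against 0.948%, 3.30%, 3.51% and 2.42% of those with Cd4 and no Cd8. Cd8 cells were thus high in CTRL 2 and Trpv1-ADC 1 and low in CTRL 1 and Trpv1-ADC 2. Of T cells with a Trdc UMI 0.923% to 2.60% were members. Of B cells, given for comparison, 0.149% to 0.763% held 2 or more Ifit1 and Ifit3 UMIs. Their median depths were 4363 to 4589 UMIs, against 5794 to 6040 in the gated T cells. The B cell shares rest on 1 to 4 cells a mouse. In CTRL 1 the exact 95% intervals overlapped, at 0.00497% to 1.09% for B cells and 0.644% to 1.42% for T cells. The difference was not tested. B cells can answer interferon themselves and are no blank.

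**Figure D5:**
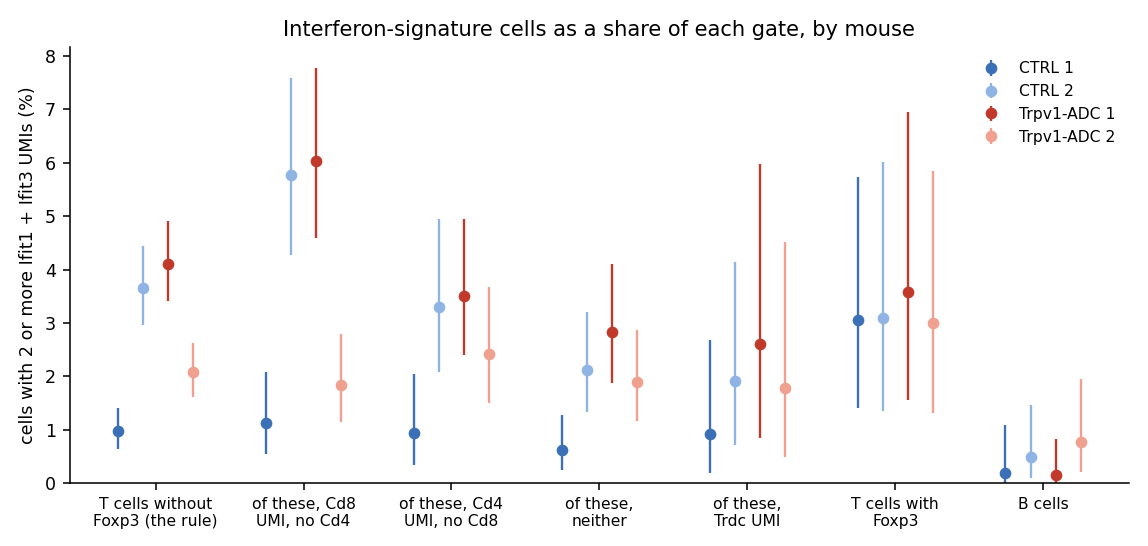
Cells with 2 or more Ifit1 and Ifit3 UMIs as a share of each gate, by mouse, with exact 95% binomial intervals that cover counting error only; the Trdc gate overlaps the 3 gates to its left. In the T cells of the rule the shares run from 0.975% to 4.11%, with a CTRL and a Trpv1-ADC mouse high and a CTRL and a Trpv1-ADC mouse low.

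The share of T cells that were members did not separate the groups. It was 2.31% ± 1.89 in CTRL and 3.10% ± 1.44 in Trpv1-ADC mice (SD, n = 2), a difference of 0.785 points (exact two-sided permutation p = 0.667, where 2 against 2 mice cannot go below 0.333). The mice of a group differed by more than the groups did, and the groups overlapped. Without CTRL 1 the difference was -0.551 points and without Trpv1-ADC 1 -0.232. With each cell thinned to 2000 UMIs before gating the shares were 0.1246%, 1.06%, 1.54% and 0.516%, in the same order of mice, and the difference was 0.437 points.

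Within members, Trpv1-ADC mice were then compared with CTRL mice. Of 9367 genes with at least 20 UMIs, edgeR called 0 at an adjusted p under 0.05 (0%), with 259 at an unadjusted p under 0.05, and DESeq2 called 3, all lower in Trpv1-ADC mice. Without CTRL 2 edgeR called 4. The members of CTRL 1 summed to 342030 UMIs and those of the other mice to 633851 to 830595, which limits what could be called. The interferon-linked lists did not all order the mice alike. In members the PYHIN genes summed to 959, 1831, 2229 and 1481 CPM and the Schlafen genes to 456, 789, 1088 and 682. The interferon-induced chemokines and ligands, at 1251, 2060, 737 and 1458 CPM, were the only such list not lowest in CTRL 1. The antiviral effectors were at a like level in members of 3 of the mice and lower in CTRL 1. They summed to 5257, 8455, 8611 and 8425 CPM in members and to 2546, 2911, 3088 and 3129 in other T cells. In members CTRL 2 thus lay between the Trpv1-ADC mice, and 0 of 47 genes were called, with a median log2 fold change of 0.36 for Trpv1-ADC over CTRL, against 0.0029 for all genes tested. Isg15 stood at 0.28 ± 0.28. Of the GTPases, the Schlafen genes and the MHC class I genes 0 were called, with medians of 0.25, 0.49 and 0.15. The cell cycle genes, which summed to 444, 419, 527 and 915 CPM, had 0 of 9 called and a median of 1.61. All of these values include CTRL 1, whose members also held the most epithelium and fibroblast RNA, and the part of that RNA in them was not tested.

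The 10 smallest unadjusted p values were in a mixed set of genes, given here as values. Igfbp3, a secreted binding protein of insulin-like growth factors, stood at 96.5, 170.0, 10.8 and 14.2 CPM (-3.42 ± 0.41, edgeR adjusted p = 0.435, DESeq2 adjusted p = 0.00137). Gzmb, the cytotoxic protease granzyme B, stood at 146, 111, 20.5 and 25.2 CPM (-2.46 ± 0.31) and Ifng at 52.6, 43.8, 6.02 and 4.73 CPM (-3.07 ± 0.47). These 10 genes were picked by their p values, so the order of the mice in them is no further evidence. The Ifng values rest on 18, 35, 5 and 3 UMIs. In other T cells the group difference was -1.41 for Gzmb and -0.24 for Ifng. Postn (-2.53), Cxcl12 (-1.75), Ccl11 (-1.63), Col6a5 (-2.73) and Col5a2 (-1.88) are genes of fibroblasts and their matrix, and the fibroblast markers were also higher in CTRL members (1555 and 1116 CPM) than in Trpv1-ADC members (810 and 691). Slc2a13, a myo-inositol transporter, was at -4.80, and Slfn9, at 5.85, 11.3, 50.6 and 44.2 CPM, was the only gene of these higher in Trpv1-ADC members (2.35 ± 0.47). Slfn9 was also at 1.28 in other T cells (adjusted p = 0.111), where the sums were 3.67, 6.21, 12.6 and 10.9 CPM. None of the 10 was called by edgeR on the genes with at least 20 UMIs. Without that filter edgeR called all 10, with adjusted p from 1.63e-12 (Igfbp3) to 0.0226 (Col5a2), among 60 genes, 9 higher and 51 lower. The 3 genes called by DESeq2 were Igfbp3, Gzmb (adjusted p = 0.032) and Postn (adjusted p = 0.0058).

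Whether the group difference in members departed from that in other T cells was tested as an interaction, which called 2 of 15422 genes (0.013%), with 395 at an unadjusted p under 0.05. Igfbp3 fell by 2.77 ± 0.42 more in members than in other T cells (adjusted p = 2.66e-04), which stood at 55.1, 82.2, 60.9 and 30.8 CPM. Mctp1, a calcium-binding membrane protein, stood at 23.4, 17.5, 51.8 and 103 CPM in members and 34.9, 31.2, 22.5 and 32.8 in other T cells (2.18 ± 0.44, adjusted p = 0.0496). Both rest on few cells, since 2.56% to 18.5% of the members of a mouse held an Igfbp3 UMI and 4.21% to 14.8% a Mctp1 UMI. With cells over 10 non-immune UMIs left out the values were -2.99 (adjusted p = 1) and 2.18 (adjusted p = 0.493), and neither call stood. The Igfbp3 call was also lost without CTRL 1 (adjusted p = 0.146), CTRL 2 (0.526) or Trpv1-ADC 1 (0.181), and that of Mctp1 without CTRL 1 (1), CTRL 2 (0.894) or Trpv1-ADC 2 (0.0955). The Igfbp3 call was lost as well without Scrublet doublets (-3.05, adjusted p = 0.37) and with at least 3 Ifit1 and Ifit3 UMIs (-0.42, adjusted p = 1), and that of Mctp1 with the stricter cell filter (2.08, adjusted p = 0.0838). Ifng (-2.82, adjusted p = 0.0518), the chemokine Ccl2 (3.65, adjusted p = 0.0526) and Postn (-1.69, adjusted p = 0.0791) came next without passing. Ifng was called with at least 3 Ifit1 and Ifit3 UMIs (-4.63, adjusted p = 3.63e-05), with the stricter tag rule (-3.42), with at least 2 T cell gene UMIs (-2.91) and with at most 10 non-immune UMIs (-3.00), and stood at -1.89 (adjusted p = 1) without Scrublet doublets. CTRL 1 held only 13 members with at least 3 Ifit1 and Ifit3 UMIs. Ccl2 was called with at least 2 T cell gene UMIs (4.48) and without Trpv1-ADC 2 (4.31), and stood at 2.64 (adjusted p = 1) without Trpv1-ADC 1, which held 40 of its 52 member UMIs. Postn was called with at least 2 T cell gene UMIs (-2.02) and without Trpv1-ADC 2 (-2.20), and stood at 8.75 (adjusted p = 1) with at most 10 non-immune UMIs. Of the interferon-linked lists 0 genes were called in the interaction, and the antiviral effectors had a median of 0.16.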

How the data were processed

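The authors deposited raw counts from 1 droplet run: a matrix of UMI counts per gene and barcode (55487 genes, 23063 barcodes) and a matrix of counts per CD45 tag. Both hold whole numbers. Cell Ranger, Seurat and mm10 are named in the submitters' processing notes. Versions, aligner settings and annotation release are not given in the sources used here. Both 3' and 5' chemistry are named in the labels.

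Barcodes with at least 500 UMIs and at most 10% mitochondrial UMIs were kept (22734). A mouse was assigned where its tag had at least 10 counts and 3 times the next of the 4 tags (19571 cells, 31233844 to 38250899 UMIs per mouse). Scrublet (scanpy 1.11.5, expected rate 0.2) was used only in an alternative. UMIs were summed per mouse and cell set and tested with edgeR 4.0.16 (TMM, robust quasi-likelihood fit, Benjamini-Hochberg over all genes tested at 0.05). The SE of an edgeR value is its absolute log2 fold change divided by the square root of the quasi-likelihood F statistic. It is not a fitted standard error, and the adjusted p cannot be read from it. Member and other T cells were fitted with a term for the mouse on genes passing filterByExpr on the pooled T cells, the interaction in the same fit, and the groups on genes with at least 20 UMIs in members. DESeq2 1.42.0 was an alternative. Fits were also run on simulated counts whose spread was set in advance, with the outcome not given here. Shares were tested by exact permutation. Intervals are exact binomial (Clopper-Pearson, 95%).

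Genes named are the 15 largest rises and 10 largest falls past the threshold in 1 direction in all 4 mice, called genes of the lists, the 10 smallest p for the groups and up to 5 for the interaction. Genes of antigen receptor segments were not named, and some genes are not reported here. The members, lists and rules were chosen with earlier results of these data known. Nothing says whether the mice were handled separately before tagging, and p-values measure the spread between these 4 samples.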

Additional observations from a re-analysis of the deposited data

Results flagged for a closer look

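Igfbp3 differed between the groups by a value that was not the same in members and in other T cells (interaction -2.77 on the log2 scale, Trpv1-ADC over CTRL), and so did Mctp1 (2.18). Both calls were lost under several settings, which are given with them above. Tags that the labels do not name, 11 of 15 in the deposited tag matrix, held 0.127% of all tag counts (22446), with no control to set them against.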

How the results depend on the processing

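The difference in the share of members between the groups kept its sign and stayed short of the threshold in every setting that kept all 4 mice; over the fits that left out a mouse it ran from -0.551 (without CTRL 1) to 2.12 points, and it was -0.232 without Trpv1-ADC 1. With a replicate block the difference was 0.785 points (exact permutation p = 1) and the group test called 0 genes. The deviations of same-numbered mice from their group means had a correlation of -0.264. With 2 mice per group this is a single contrast, so it cannot show whether the mice were paired. No replicate block was added to the fits that hold a term for the mouse.

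Genes higher in members numbered 134 with at least 3 Ifit1 and Ifit3 UMIs, 561 without the low-count filter, 146 without the mouse term, 108 in Cd4 and 56 in Cd8 cells alone, and 201 to 767 with a mouse left out. Genes lower numbered 41 with DESeq2, 43 with at least 3 UMIs, 153 with at most 10 non-immune UMIs (a setting added after seeing the data), 216 without the low-count filter, 23 without the mouse term, 51 without robust fitting, 45 in Cd4 and 2 in Cd8 cells alone, and 56 to 200 with a mouse left out. Of 78 named genes 27 were called in every one of the 18 settings that tested them. Dsg2 turned to -0.86 with at most 10 non-immune UMIs, and Klrd1 to 0.41 in Cd4 cells.

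The group test called 3 genes with DESeq2, 60 without the low-count filter and 0 to 4 with a mouse left out. The interaction called 82 genes with at least 3 Ifit1 and Ifit3 UMIs, 1 with the stricter cell filter, 6 with at least 2 T cell gene UMIs, 31 with at most 10 non-immune UMIs, 7 with the stricter tag rule, 11 without Scrublet doublets and 1 to 81 with a mouse left out (81 when Trpv1-ADC 2 was the one, 17 for Trpv1-ADC 1, 5 for CTRL 2). Several of these settings left few members in CTRL 1. It held 13 with at least 3 Ifit1 and Ifit3 UMIs and 14 with the stricter tag rule. It held 16 without Scrublet doublets and 19 with at most 10 non-immune UMIs. The group test had been planned for at least 20 members in every mouse. Postn turned to 8.75 in the interaction with at most 10 non-immune UMIs. Among the shares, Cd44 was 2.48 points and Nkg7 8.74 without thinning, Nkg7 3.68 and Mki67 -0.164 at 4000 UMIs, and Nkg7 0.229 and Mki67 -0.241 without Scrublet doublets. With a mouse left out Mki67 ran from -0.119 to 1.31 points. The cause of these shifts was not tested. With 27 members in CTRL 1, 2 mice per group and a gate that 130 of 306 members pass by the minimum of UMIs, small differences between the groups could not be seen at this depth.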

Other observations

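Regulatory T cells, left out of the members by the Foxp3 condition, held the interferon signature at a share that varied little between mice. Of T cells with a Foxp3 UMI, 3.06%, 3.10%, 3.59% and 3.01% held 2 or more Ifit1 and Ifit3 UMIs (9 of 294, 8 of 258, 8 of 223 and 8 of 266), where the T cells without Foxp3 ran from 0.975% to 4.11%. The exact 95% intervals of the 4 values, from 1.31% at the lowest to 6.95% at the highest, are wide, and the difference between the gates was not tested. Of cells with at least 2 Csf1r UMIs and no T cell gene UMI, 1.49%, 2.74%, 0.725% and 7.34% held the signature (3 of 202, 4 of 146, 1 of 138 and 8 of 109). The value of CTRL 1 was not the lowest there. Its exact 95% interval, 0.307% to 4.28%, overlaps that of Trpv1-ADC 1, 0.0183% to 3.97%, so the order of these mice is uncertain.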
